A study of Mus musculus with 12 samples.

Results

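Immediate early genes are genes that neurons switch on within minutes of being activated, from transcription machinery that is already in place. The genes described here were Fos, Fosb, Junb, Egr1, Egr2, Egr3, Egr4, Nr4a1, Arc and Dusp1, a list of 10 taken by name, and every probe annotated to them was read from the unnormalized bead intensities. A probe counted as measured where its detection p-value was under 0.01 on at least 3 of 12 arrays. Of the 10 genes, 8 had a named probe and 9 probes belonged to them. Of these probes, 8 were measured, 1 for each of the 8 genes, among 13547 features tested. Egr2 and Nr4a1 had no named probe and were not analysed here. A second Egr3 probe passed the detection limit on 1 of 12 arrays, male control 3, had an intensity of 105 to 134 over the arrays, and was not counted as measured.

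In a neuron, calcium entry and growth factor signals reach the promoters of these genes through kinases that phosphorylate the factors CREB and SRF with its partners. The first wave of transcripts encodes both transcription factors (the FOS and JUN proteins, which pair to form AP-1, and the zinc finger EGR proteins) and proteins that act directly, such as the synaptic protein ARC and the phosphatase DUSP1. The transcripts are short-lived, and FOS staining is widely used in the hypothalamus to map the neurons that had been active shortly before an animal was killed.

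The tissue was hypothalamus from FVB/NJ-Jax mice, an inbred strain, at postnatal day 180. The groups, 4 of 3 mice each, were control females, small-litter females, control males and small-litter males. Small litters give each suckling pup more milk, and the series title names overnutrition after birth as its subject. A single Illumina bead array was hybridised per mouse with biotin-labelled total RNA, no group carried a transgene or a drug by the labels, and the labels number the mice of a group as biological replicates. The litter size, the number of litters behind the 3 mice, the time of day and the handling before dissection do not appear in the labels. P-values therefore measure the spread between these mice, some of which may share a litter.

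Bead intensity had a median of 112 to 127 in females and 103 to 108 in males, and 39.7% to 41.9% of 45281 probes were detected per array. Since brightness did not overlap between the sexes, sex and brightness cannot be told apart. Set against the tissue label, 11 of 13 hypothalamic markers, most of them neuropeptide genes, were measured, and the others (Sim1 and Otp) had no tested probe. Male small litter 2 and 3 stood apart in a principal component analysis (first component 21.4 and 27.9, next highest 4.62). Female control 3 and male control 2 carried the highest levels of the meningeal marker list. Female control 2, the array titled KC05c, stood apart in the immediate early genes themselves, so the members' litter and sex values that turn on it are given with and without it. Levels below are background-corrected, normalized log2 intensities of 1 probe, so they rank arrays for a gene and do not rank genes against each other.

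The FOS and JUN genes varied from mouse to mouse within groups, least so Junb in control males. Fos, which encodes the AP-1 subunit used as the standard activity marker, had log2 levels of 8.82, 9.91 and 9.74 in control females 1 to 3 and 9.14, 9.68 and 9.20 in small-litter females. In males its levels were 9.42, 8.91 and 8.84 in controls and 8.51, 10.16 and 9.55 in small litters. Both the highest and the lowest Fos level of the series were therefore in small-litter males, a range of 1.65 on the log2 scale, and no group was separated from its neighbours in the order of group means. Fosb, whose product and its truncated form ΔFOSB also build AP-1, lay at 5.38, 7.12 and 6.21 in control females and at 5.33, 5.75 and 5.97 in small-litter females. Control males had Fosb levels of 6.41, 5.55 and 6.03 and small-litter males of 5.13, 6.06 and 5.71. Its probe was dim, detected on 11 of 12 arrays and not on male small litter 1, and the highest level was that of female control 2. Junb, an AP-1 partner of FOS that restrains JUN, had levels of 6.45, 7.45 and 6.92 in control females, 6.90, 6.92 and 6.47 in small-litter females, 6.66, 6.82 and 6.49 in control males and 6.49, 7.30 and 7.35 in small-litter males. On 3 arrays, female control 2 and male small litter 2 and 3, Junb lay above 7, and on the others it did not.

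By range over the 12 arrays, without regard to brightness, the EGR genes held both the most even and the most uneven of the factors. Egr1, also called Zif268, was bright on every array, with levels of 10.93, 11.61 and 10.96 in control females, 11.26, 11.39 and 11.10 in small-litter females, 11.48, 11.26 and 11.04 in control males and 11.20, 11.67 and 11.13 in small-litter males. Its range over the 12 arrays was 0.74. Egr3, a close relative that acts downstream of neuronal and T-cell receptor signalling, had levels of 6.42, 9.57 and 6.88 in control females and 6.18, 6.70 and 6.74 in small-litter females. The male Egr3 levels were 6.46, 6.32 and 6.76 in controls and 5.77, 6.51 and 6.65 in small litters. A single array, female control 2, thus stood far above the other 11, which spanned 1.11 on the log2 scale against 3.80 with it. As unnormalized intensity the Egr3 probe read 895 on that array and 140 to 223 on the others. Egr4, a family member expressed largely in neurons, lay at 5.71, 7.16 and 6.28 in control females, 6.16, 6.57 and 6.52 in small-litter females, 6.67, 6.06 and 6.67 in control males and 5.89, 6.35 and 5.93 in small-litter males.

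Arc and Dusp1 were the 2 measured genes that encode no transcription factor. Arc, whose product removes AMPA receptors from synapses and whose RNA travels into dendrites, had levels of 7.51, 7.25 and 7.28 in control females and 6.72, 7.08 and 7.22 in small-litter females. In males the Arc levels were 6.88, 6.92 and 6.39 in controls and 7.01, 7.45 and 7.30 in small litters. The litter groups did not overlap in either sex, with small-litter females below control females and small-litter males above control males. Dusp1, a phosphatase that switches off MAP kinases and so closes the feedback loop, had levels of 9.78, 10.81 and 10.69 in control females, 10.63, 10.59 and 10.52 in small-litter females, 10.29, 10.23 and 9.88 in control males and 9.85, 10.15 and 10.22 in small-litter males. All 3 small-litter females were above all 3 small-litter males for Dusp1, a separation in this direction that 13.4% of all features showed.

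**Figure D1:**
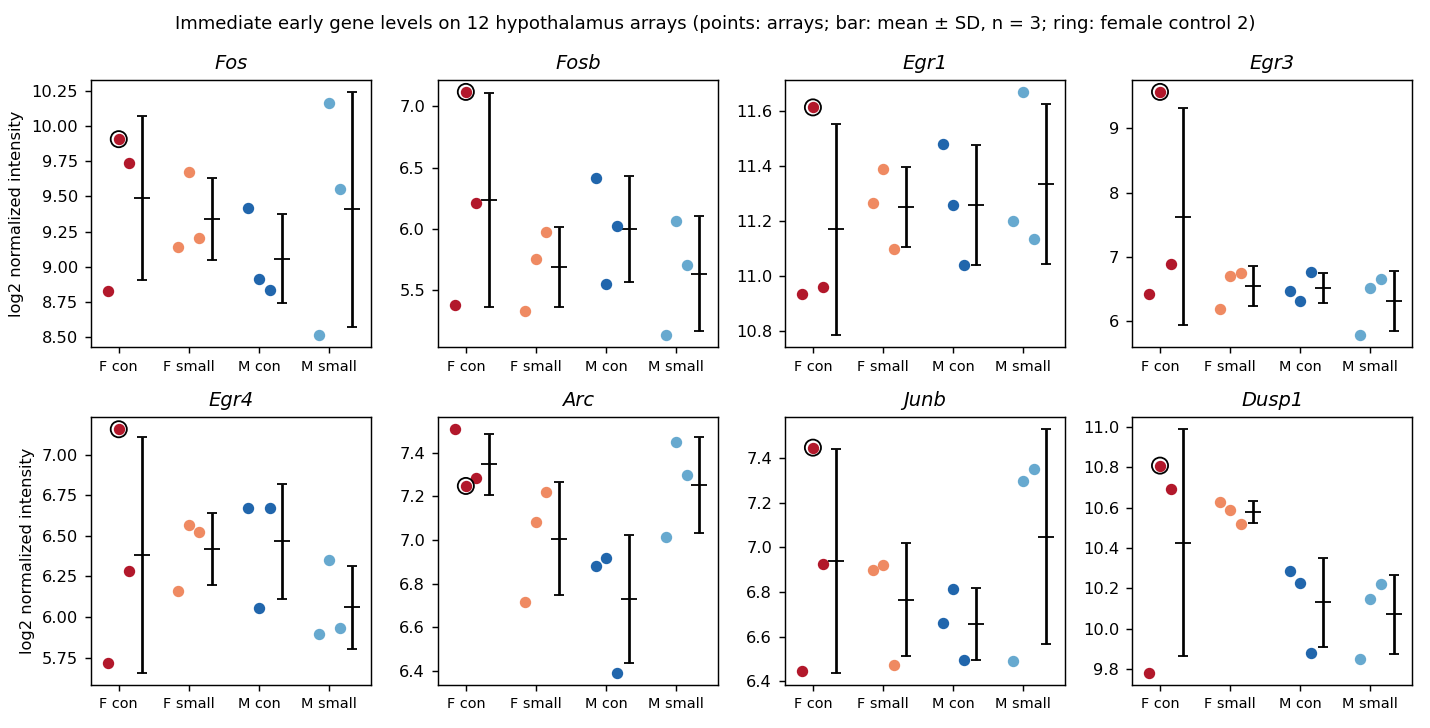
Log2 level (vertical axis) of each of the 8 measured immediate early genes on each of the 12 arrays, by group on the horizontal axis, with 1 point per mouse and a bar at the group mean. Egr3 on female control 2 lies at 9.57 and on the other arrays at 6.88 or lower, and Arc separates the litter groups in opposite directions in females and males.

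The order of group means differed from gene to gene. Arc was highest in control females, followed by small-litter males, small-litter females and control males, whereas Egr1 was highest in small-litter males and lowest in control females, over a range of means of 0.17. For each of the 8 genes, groups next to each other in this order overlapped, so no step from a group to its neighbour exceeded the spread of single mice.

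Taken array by array, the genes were high or low together on a few mice. The mean deviation of the 8 genes from their own 12-array means was 0.89 on female control 2 and between -0.49 and 0.23 on the other arrays. On female control 2, 8 of 8 genes were above their own median, against 6 of 8 on female control 3, female small litter 2 and male small litter 2. Male small litter 1 had 0 of 8 above the median and was the lowest array for Fos, Fosb and Egr3. Female control 1 had 1 of 8 above the median: it was the lowest array for Egr1, Egr4, Junb and Dusp1, and the highest for Arc. The control females thus held the array with the highest mean deviation and 1 of the lowest, with female control 1 at -0.35 and female control 3 at 0.15.

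**Figure D2:**
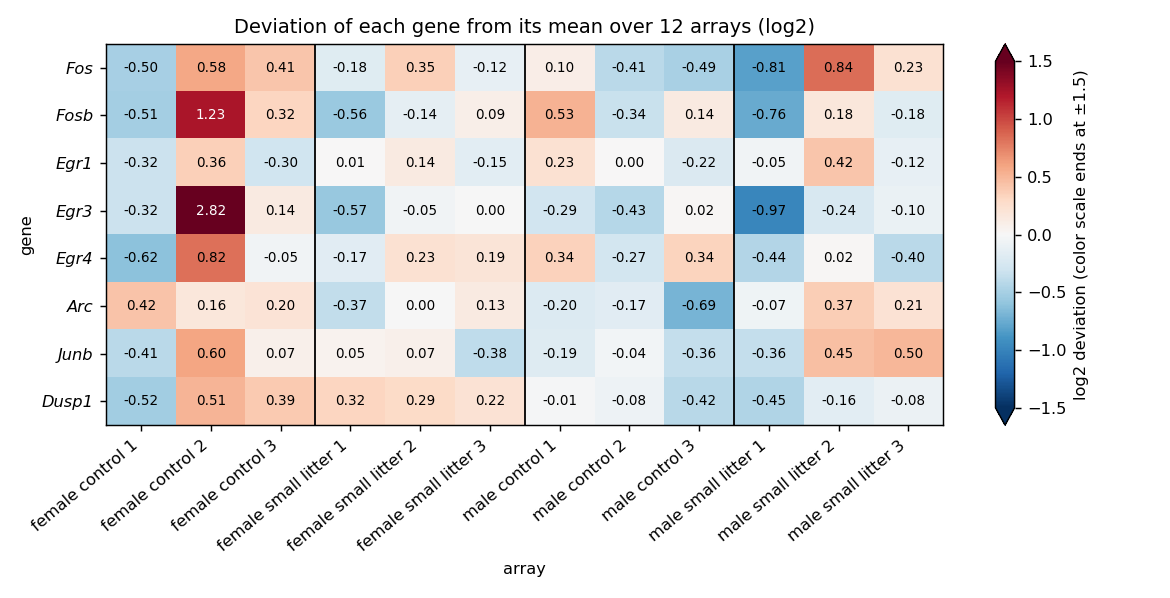
Deviation of each gene's log2 level from its mean over the 12 arrays (colour and printed value), with genes in rows and arrays in columns ordered by group. The column of female control 2 is above the mean for all 8 genes, and those of female control 1 and male small litter 1 are below it for most.

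Female control 2 had high levels of most of these genes, Egr3 above all. Egr3 was 3.08 above the mean of the other 11 arrays on the log2 scale, or 8.46-fold, and exceeded the highest of them by 2.69, the largest such gap of all 13547 features. This rests on 1 probe: the second Egr3 probe, below the detection limit on this array, had an intensity of 126 there and ranked 7 of 12. Fosb exceeded the highest other array by 0.70 (rank 6) and Egr4 by 0.48 (rank 13). Junb and Dusp1 were also highest there, by 0.09 and 0.12. In all, 5 of 8 genes had their highest level on this array, where 8.33% of all features did. All 8 were above the mean of the other 11 arrays, as were 49.3% of features, and 6 of 8 were above it by at least 0.5, as were 1.72% of features. Against the other control females alone, Arc was lower on this array, at -0.15, while each of the other genes was higher. Fos (9.91) and Egr1 (11.61) were second to male small litter 2, and Arc (7.25) was exceeded on 4 other arrays. The array had been singled out with these values known, so the counts describe 1 mouse and carry no test.

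**Figure D3:**
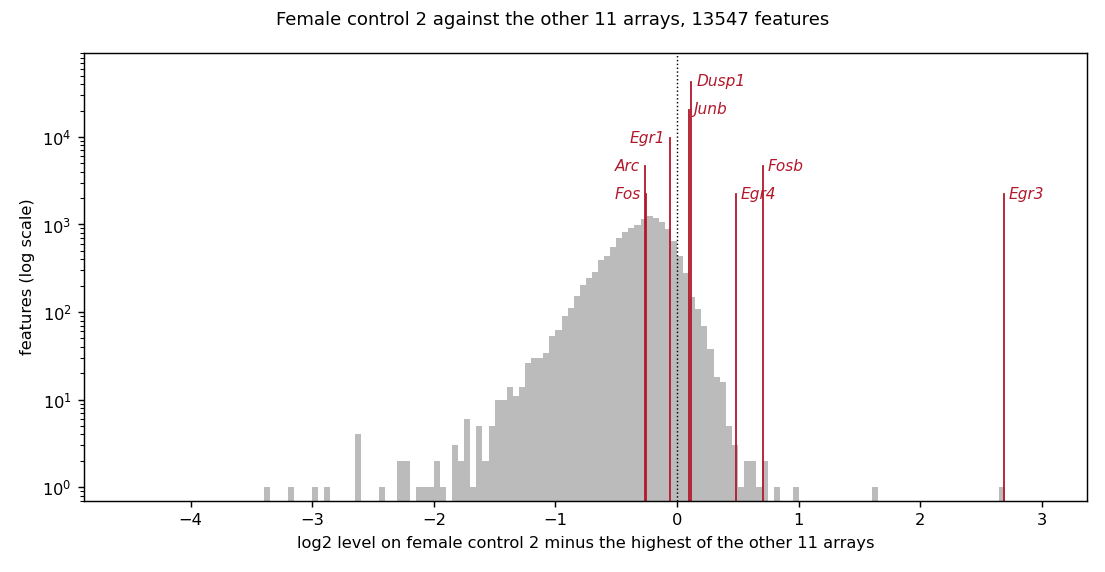
Histogram of the log2 level on female control 2 minus the highest level on the other 11 arrays (horizontal axis) over 13547 features, with the number of features on a log scale (vertical axis). Red lines mark the 8 immediate early genes; Egr3 lies at 2.69, Fosb at 0.70 and Egr4 at 0.48, while Fos, Egr1 and Arc lie below 0.

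Some other genes that respond early to activity were also highest on the same mouse, where 8.33% of all features were. Of 20 measured early effectors and feedback genes, 6 had their highest level there, 13 lay above the mean of the other 11 arrays and the others below it, the lowest being Dusp5 (-0.44), Rgs4 (-0.25) and Dusp4 (-0.22). Gadd45b, a stress and activity gene tied to DNA demethylation, lay 0.90 above the mean of the other 11, and the cell cycle cofactor gene Sertad1 lay 0.55 above it. The other 4 were Nfkbia (0.39), Sik1 (0.37), Gadd45g (0.23) and Rgs2 (0.17). Among 14 other early transcription factors, 2 were highest there: Ier5l (0.76 above) and the AP-1 gene Fosl2 (0.53). By contrast Nr4a2, Ier3 and Crem were at -0.06, -0.20 and -0.29 relative to the mean of the others. Of 14 genes listed as late activity genes, 2 were highest there, the enkephalin precursor gene Penk (0.54) and Lonrf3 (0.32), while Bdnf was at -0.28 and Homer1 at -0.03. Of 14 genes that carry the signal to the early genes, 3 were highest there: Mef2c (0.53), Map2k2 (0.50) and Srf (0.28). None of the 5 genes for partners of EGR and NR4A proteins was. These genes were named because they were highest on this array or are well-known members of their list, after their values had been seen.

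Some markers of other tissue were also high on the same array. The choroid plexus list (5 of 7 listed genes measured) was highest there, with 5 of 5 above the mean of the other arrays and a mean deviation of 0.75. Only 1 of the 5 genes, Ttr, was itself highest there, and the median difference of the list was 0.22. Ttr, the transthyretin gene that defines choroid plexus, was 2.83 above the mean of the other 11 and exceeded the highest of them by 1.61, the gap second to that of Egr3. Over groups, the choroid plexus level ran from 7.08 to 7.91 in control females, 6.67 to 7.26 in small-litter females, 6.64 to 7.36 in control males and 6.89 to 7.21 in small-litter males. Hypothalamic markers were also highest there, at a mean deviation of 0.30, with 9 of 11 above the mean of the others. Of the 11, 4 were highest there. The highest other array was exceeded by 0.18 for Nkx2-1, 0.10 for Pomc, 0.09 for Hcrt and 0.07 for Kiss1. Cartpt (-0.19) and Ghrh (-0.23) lay below the mean of the others. Kiss1 was lower in males (log2 difference in controls -1.12 ± 0.17, limma adjusted p = 0.0335), and 6 of the other 11 arrays were male. Nkx2-1 (-0.40 ± 0.13), Hcrt (-0.39 ± 0.15) and Pomc (-0.56 ± 0.27) were also lower in control males, without passing the threshold. The pituitary hormone gene Prl was 2.22 above the mean of the other arrays and second highest of the 12. The other tested pituitary genes did not stand out there: Cga was at 0.30 (rank 5) and Tshb at -0.20 (rank 9). Meningeal markers had a mean deviation of -0.34 there, which was not particular to this array. Small-litter females lay at -0.37 to -0.21, and the lowest arrays of control and small-litter males at -0.45 and -0.43. The part of these tissues in the early gene levels was not tested. In whole hypothalamus, more cells of a type and more RNA per cell cannot be told apart.

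The promoters of the genes that were highest on female control 2 are shown because these genes were high together on 1 mouse, with matches to CREB and EGR motifs and to the TATA box in capitals. RefSeq on GRCm38.p6 gave a promoter entry for 7 of the 10 genes, not for Egr3, Arc or Egr1. Each window runs from 250 bases before the start site to 50 after it, on the minus strand, at chr7:19309996-19310295 for Fosb, chr6:85513540-85513839 for Egr4, chr8:84978699-84978998 for Junb and chr17:26508423-26508722 for Dusp1.
Fosb: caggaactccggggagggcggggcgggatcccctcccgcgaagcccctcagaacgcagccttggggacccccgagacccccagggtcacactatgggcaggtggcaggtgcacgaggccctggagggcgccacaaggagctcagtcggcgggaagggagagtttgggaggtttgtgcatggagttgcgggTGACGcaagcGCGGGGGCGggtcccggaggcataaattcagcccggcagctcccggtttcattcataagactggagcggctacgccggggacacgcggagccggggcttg
Egr4: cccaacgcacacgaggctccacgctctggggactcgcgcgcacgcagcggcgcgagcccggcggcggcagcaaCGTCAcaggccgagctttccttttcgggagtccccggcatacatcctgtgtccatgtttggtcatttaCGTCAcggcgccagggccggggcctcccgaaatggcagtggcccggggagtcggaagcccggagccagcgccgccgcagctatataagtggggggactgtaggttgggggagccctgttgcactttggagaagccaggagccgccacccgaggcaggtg
Junb: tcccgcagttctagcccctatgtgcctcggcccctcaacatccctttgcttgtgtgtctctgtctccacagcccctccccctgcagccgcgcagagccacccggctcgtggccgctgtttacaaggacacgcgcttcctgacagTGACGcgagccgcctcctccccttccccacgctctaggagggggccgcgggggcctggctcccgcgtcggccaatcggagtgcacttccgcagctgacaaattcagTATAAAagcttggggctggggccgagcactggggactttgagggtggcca
Dusp1: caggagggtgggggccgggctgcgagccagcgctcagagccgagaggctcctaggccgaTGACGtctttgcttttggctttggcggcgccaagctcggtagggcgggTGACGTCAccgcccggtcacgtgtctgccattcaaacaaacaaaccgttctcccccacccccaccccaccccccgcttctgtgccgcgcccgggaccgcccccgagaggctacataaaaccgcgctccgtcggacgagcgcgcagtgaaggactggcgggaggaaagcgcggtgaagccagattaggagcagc

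The motifs searched were the cAMP response element half-site TGACG, read as CGTCA on the other strand, bound by CREB, its palindrome TGACGTCA, which contains the half-site on both strands, the EGR sites GCGTGGGCG and GCGGGGGCG on both strands, the TATA box TATAAA on the sense strand, and the CArG box of SRF by name. Each of the 4 printed windows, and that of Fos, held at least 1 half-site, as did 20.8% of 32851 promoter windows. Dusp1 held the palindrome at position -143 from the start site (1.79% of windows). Fosb held an EGR site at -50 (3.47% of windows). Fos held TATAAA at -33 and Junb at 1 (8.32% of windows). A CArG box, found in 1.63% of windows, was not matched in those of Fos, Fosb, Egr4, Junb and Dusp1. Egr1, Egr3 and Arc, without a promoter entry, had no window to search. Egr2, which was not measured, held the CArG box CCATATATGG at -72 from 1 of its start sites.

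In females the first question was whether small litters left a difference in these genes. None of the 8 passed the threshold in limma's test (adjusted p under 0.05 over all features), where 0% of 13547 features did, and the adjusted p was 0.9996 for each. An unadjusted p under 0.05 was reached by 0 of 8, against 3.34% of features. Egr3 had the largest log2 change, -1.08 ± 0.59 (SE, n = 3 per group), followed by Fosb at -0.55 ± 0.37 and Arc at -0.34 ± 0.17. Junb was at -0.17 ± 0.26, Fos at -0.15 ± 0.36, Egr4 at 0.03 ± 0.29, Egr1 at 0.08 ± 0.19 and Dusp1 at 0.15 ± 0.22. Without female control 2, Egr3 was at -0.11 ± 0.26 and Fosb at -0.11 ± 0.32, while Egr4 moved to 0.42 ± 0.23, Dusp1 to 0.34 ± 0.22 and Egr1 to 0.31 ± 0.17. Fos and Junb changed sign, to 0.06 and 0.08. The median over the 8 genes was -0.16 with the array and 0.07 without it (all features 0.00), and 3 higher with 5 lower became 5 higher with 3 lower. Arc, at -0.39 ± 0.20 without the array, was the gene whose groups did not overlap, 1 of 8 where 4.46% of features had small-litter females wholly below control females.

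Companion genes of the same pathway did not pass the threshold in females either (adjusted p = 0.9996 for each). Of 14 other early transcription factors 8 were higher and 6 lower, with a median of 0.01, and of 20 early effectors 8 were higher and 12 lower, with a median of -0.06. Late activity genes were 5 higher and 9 lower (median -0.12), genes that carry the signal 3 higher and 11 lower (median -0.05), and EGR and NR4A partners 2 higher and 3 lower (median 0.00). Those with the smallest p were Crem, a cAMP-responsive modulator, at 0.48 ± 0.16, the kinase gene Rps6ka3 at -0.40 ± 0.14, Gadd45b at -0.45 ± 0.18 and the MAP kinase inhibitor gene Spry4 at 0.53 ± 0.24. Klf4 was at -0.23 ± 0.21. Without female control 2, Crem was at 0.44, Rps6ka3 at -0.31, Gadd45b at -0.22, Spry4 at 0.72 and Klf4 at -0.32. Among the late and signalling genes, Rasgrp1 was at 0.23 ± 0.11, Nptx2 at -0.22 ± 0.12 and Camk2a at 0.17 ± 0.11, and among the partners Rxrg was at -0.31 ± 0.14 and Nab1 at -0.08 ± 0.09. Without that array these 5 were at 0.20, -0.23, 0.15, -0.30 and -0.13, in the same order, and the medians of the 5 lists lay between -0.10 and 0.03.

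In males Arc had the largest change, in the other direction. None of the 8 passed (0% of 13547 features did), and 1 of 8, Arc, had an unadjusted p under 0.05, where 13.4% of features did. Arc was 0.52 ± 0.17 higher in small-litter males (1.44-fold, adjusted p = 0.266, rank 451 by p). Its groups did not overlap, 1 of 8 genes where 7.29% of features had small-litter males wholly above control males. Junb was at 0.39 ± 0.26 and Fos at 0.35 ± 0.36, both high on male small litter 2 and 3 and not on male small litter 1. Without these arrays, which stood apart on the first principal component and were left out after the data had been seen, Fos was at -0.54 ± 0.38 and Junb at -0.16 ± 0.32, from 1 small-litter male assumed to vary like the other groups. Arc was then at 0.29 ± 0.24 (adjusted p = 0.999). Egr4 was at -0.41 ± 0.29, Fosb at -0.36 ± 0.37, Egr3 at -0.20 ± 0.59, Egr1 at 0.08 ± 0.19 and Dusp1 at -0.06 ± 0.22. The SE of Egr3, shared with the female groups through the common fit, was 0.23 without female control 2. The median over the 8 genes was 0.01, against -0.01 over all features.

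**Figure D4:**
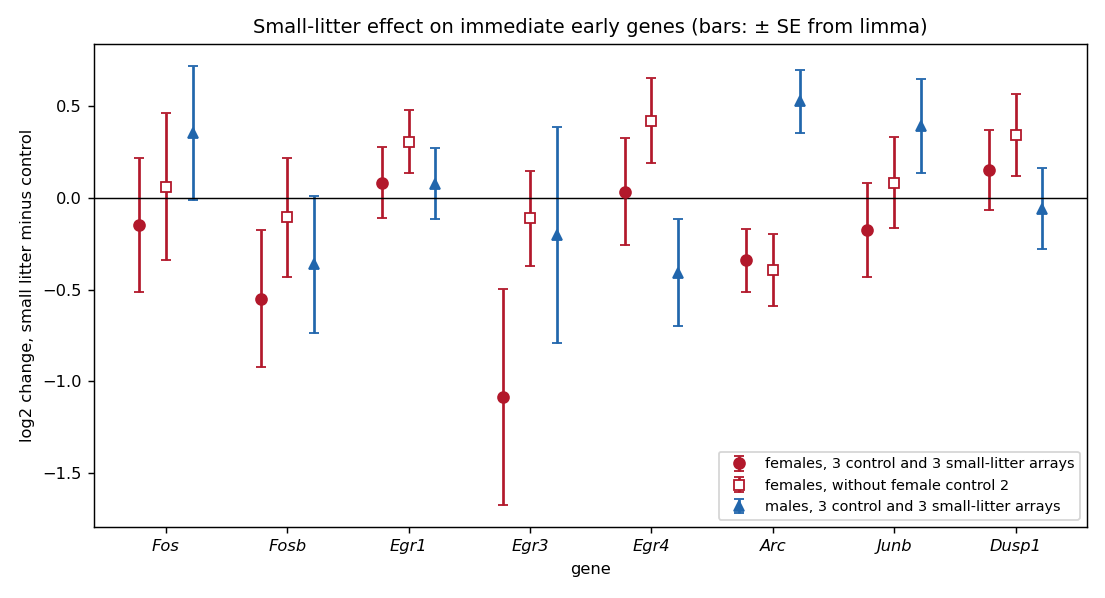
Log2 change, small litter minus control (vertical axis), of each immediate early gene (horizontal axis), with the standard error from the limma fit as bars. Markers show females with all 12 arrays, females without female control 2, and males with all 12 arrays. The Egr3 value in females moves from -1.08 to -0.11 without that array. Both Arc values in females lie below 0, and the Arc value in males lies above it.

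Cortical and hippocampal markers moved in the direction of Arc in males. Of 9 listed, 6 were tested, and 5 of 6 were higher in small-litter males, with a median of 0.29 and 0 called. Their mean level ran from 6.999 to 7.32 in control males and from 7.27 to 7.58 in small-litter males, against 7.20 to 7.30 in control females and 7.23 to 7.28 in small-litter females. General neuron markers were lower in small-litter males for 3 of 3 tested genes (median -0.22). The part of either in the Arc value was not tested.

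Of the companion lists in males, late activity genes were 11 higher and 3 lower of 14, with a median of 0.11 and 0 called. Vgf, which encodes a secreted neuropeptide precursor induced by activity, was at 0.64 ± 0.21 (adjusted p = 0.266) and Nptx2, which clusters AMPA receptors, at 0.25 ± 0.12. Other early transcription factors were 5 higher and 9 lower (median -0.04): Jund was at 0.58 ± 0.19 (adjusted p = 0.266) and Jun at -0.37 ± 0.18. Early effectors were 10 higher and 10 lower (median -0.01), with the kinase genes Sgk1 at -0.66 ± 0.26 and Plk3 at -0.36 ± 0.15. The signalling genes were 6 higher and 8 lower (median -0.01), with the CREB coactivator gene Crtc1 at 0.39 ± 0.14 and Map2k1 at 0.41 ± 0.19. Partners of EGR and NR4A proteins were 3 higher and 2 lower (median 0.00), with Nab1 at 0.15 ± 0.09 and Rxra at 0.13 ± 0.14. No companion had an adjusted p under 0.266.

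Averaged over the sexes, no gene passed (0% of features did), 0 of 8 had an unadjusted p under 0.05 (6.08% of features), and the values ran from -0.64 ± 0.42 for Egr3 and -0.46 ± 0.26 for Fosb to 0.11 ± 0.18 for Junb. Arc, with opposite values in the sexes, averaged 0.09 ± 0.12. Without female control 2, Egr3 was at -0.16 ± 0.17, Fosb at -0.24 ± 0.22, Junb at 0.24 ± 0.17 and Arc at 0.07 ± 0.13. The test of the difference between the sexes in the litter effect called no gene either (0% of features). Arc, the 1 of 8 genes with an unadjusted p under 0.05 (9.75% of features), had a female effect minus male effect of -0.87 ± 0.24 (adjusted p = 0.406, rank 109), and -0.92 ± 0.26 without female control 2. Litter groups that did not overlap in either sex and moved in opposite directions were seen for 1% of features. Egr3 was at -0.88 ± 0.83 and at 0.09 ± 0.35 without female control 2. Egr4 was at 0.44 ± 0.41 with all arrays and at 0.83 ± 0.31 without that array. Without it Arc and Egr4, 2 of 8, had an unadjusted p under 0.05 in limma's test, as had 9.98% of features. No member then had an adjusted p under 0.468. Egr4 was highest on that array, which had been singled out with these values known.

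Between the sexes, 0 of 8 genes passed in controls, where 0.0664% of features did, and 0 of 8 in small litters, where 2.44% did. Without female control 2 both counts were again 0, where 0.0517% and 1.2% of features passed. In controls Arc was lower in males by limma, at -0.62 ± 0.17 (adjusted p = 0.212, and the 1 of 8 with an unadjusted p under 0.05, as had 12.2% of features), with control males at 6.39 to 6.92 and control females at 7.25 to 7.51. Without female control 2 the value was -0.67 ± 0.20. It was the gene of the 8 whose groups did not overlap, where 8.56% of features had males wholly below females. Egr3 was at -1.11 ± 0.59 in controls and at -0.14 ± 0.26 without female control 2. In small litters Dusp1 was at -0.51 ± 0.22 in males (adjusted p = 0.188, and likewise the 1 of 8, where 23.5% of features had such a p), with males at 9.85 to 10.22 and females at 10.52 to 10.63. Its groups did not overlap, again 1 of 8, where 13.4% of features had males wholly below females. Arc was at 0.25 ± 0.17 in the same comparison. Brightness differed between the sexes in these same arrays, and its part was not tested.

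Most of the immediate early genes varied more between mice of 1 group than most features did. The residual SD within groups was 0.90 for Egr3, 0.56 for Fosb, 0.55 for Fos, 0.44 for Egr4, 0.38 for Junb, 0.32 for Dusp1, 0.28 for Egr1 and 0.24 for Arc, against a median of 0.16 over all features. Because dim probes spread more, each gene was also set against features within 0.5 of its mean log2 level. There 7 of 8 genes exceeded the 95th percentile, above which 5% of features lie, and 6 of 8 did without female control 2. Against all features the counts were 6 of 8 and 4 of 8. Without that array Egr1 (71.2nd percentile), Arc (82.8), Dusp1 (91.4) and Egr4 (93) lay below the 95th percentile. With it Egr1 (89.6) and Arc (80.1) did so too. The percentiles that follow are again among features of like level. Egr1 was at percentile 98.5 with all arrays and 95.1 without female control 2. Fos was at the 99.9th percentile with and without that array, and its residual SD of 0.56 without it was close to that with it. Egr3 fell to 0.35 without the array, at the 96.3rd percentile of like level, and Egr4 to 0.30, at the 89.8th. Arc, the gene with the lowest p in the litter comparison of males, was at the 82.4th percentile of like level with all arrays, the lowest of the 8. Deviations between mice that set this spread are the same ones that set the standard errors above.

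**Figure D5:**
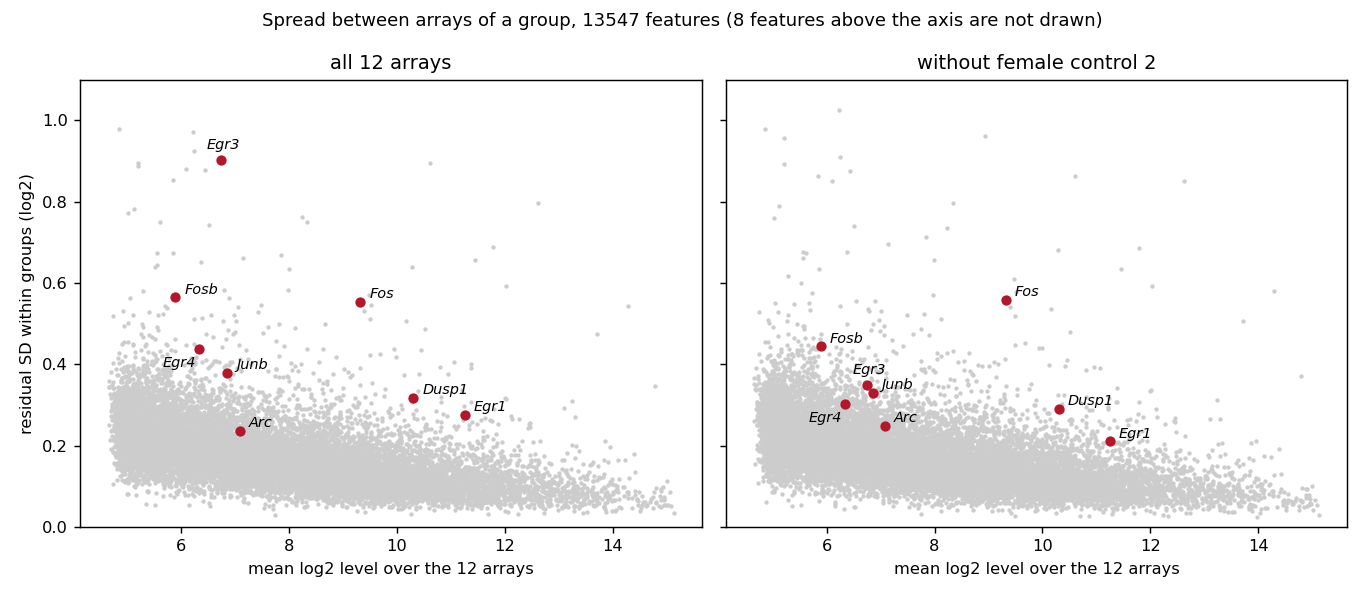
Residual standard deviation within groups (vertical axis, log2) against the mean log2 level over the 12 arrays (horizontal axis) for 13547 features, of which 8 lie above the axis, with all arrays and without female control 2. In red, 7 of 8 immediate early genes lie above the 95th percentile of features of like level, 6 of 8 without that array and Arc in neither case, and Egr3 drops from 0.90 to 0.35 without it.

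The genes whose pattern over the 12 arrays was most like the mean of the 8 were Rp9 (Pearson r = 0.88), Sclt1 (0.86), 4930429B21Rik (0.84), Cmip (0.84), Blzf1 (0.83) and Prkar2b (0.79), out of 10904 genes. Over the 11 arrays without female control 2 they were Trmo (0.88), Mfhas1 (0.86), Nup37 (0.83), Sirt1 (0.81), Drd1 (0.81) and Sesn3 (0.80). The lists share no gene. Over the 11 arrays the first 5 genes were at 0.63 to 0.77 and Prkar2b at 0.38. The values describe 12 points that share arrays and normalization, with female control 2 far from the rest.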

How the data were processed

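RNA levels were measured on Illumina bead arrays, 1 per mouse. For 45281 probes the authors deposited the mean bead intensity, neither background-subtracted nor normalized, and a detection p-value. The authors also deposited log2 values for 20791 probes, for which the submitters' processing notes name lumi; its version is not given in the sources used here. Per their values they are quantile-normalized (median 7.84) without background subtraction, and they served as an alternative. Probes took gene names from a table of the platform's annotation: 18003 of the 20791 had 1 symbol, 6 had several and 2782 were not listed; probes of the latter kinds stayed unnamed.

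Normalization used limma 3.58.1 under R 4.3.3: neqc corrects background from the detection p-values, adds an offset of 16, equalizes quantiles and takes log2. A probe needed a detection p under 0.01 on 3 or more arrays (19704 did), and the brightest probe stood for a gene, giving 13547 features (10912 named). The linear model gave each of the 4 groups a mean and pooled its spread over the 12 arrays (lmFit, eBayes, 8 residual and 4.84 prior degrees of freedom). Each of 6 contrasts was tested 2-sided, with p-values adjusted by Benjamini-Hochberg across features (threshold 0.05). The fit was tested on simulated data.

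Named are all members and, from each companion list, the 2 genes with the smallest p in the female and male litter comparisons, plus the 6 genes most like the members' mean. Genes named for female control 2 were chosen after their values were seen. Members and lists were chosen with earlier results of these data known. Alternatives, tried singly, were a larger offset (50), the authors' values, median scaling, omitting background correction or the detection filter, requiring detection on all arrays, every probe, only the 6 arrays compared, trend and robust, array weights, a replicate block and leaving out arrays. Array number limits the precision of every value.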

Additional observations from a re-analysis of the deposited data

Results flagged for a closer look

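The litter effect on Arc in females minus that in males was -0.87 ± 0.24 (log2, SE), and it stands here because all 3 small-litter females lay below all 3 control females while all 3 small-litter males lay above all 3 control males. The difference was tested as a contrast in the limma fit (adjusted p = 0.406), so it did not pass over all features, and 136 features (1%) showed groups separated this way. Without each array in turn the adjusted p ran from 0.0715 (without male small litter 1, where 190 features passed against 0 with all arrays) to 0.712 (leaving out replicate 2 of that group). Levels of the cortical and hippocampal list ran alongside Arc in males, as given above.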

How the results depend on the processing

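None of the 8 genes passed the threshold in any of the 6 comparisons under 13 other settings (602 values, smallest adjusted p = 0.0777, Arc in males with array weights) or without each array in turn (576 values, smallest adjusted p = 0.0642, Dusp1 between the sexes in small litters without female control 1). The direction stayed in 576 of the 602 values and in 527 of the 576, but many of these could not turn. Settings such as trend and robust, the replicate block, every probe and the changed detection filters leave a member's estimate as it is. So does leaving out an array of a group that a comparison of 2 groups does not use. The counts therefore do not measure stability. The cause of the turned values was not tested, and under the other settings most of these lay within 1 standard error of 0. The Egr4 litter effect in females was -0.011 with the authors' values, -0.011 without background correction, -0.037 with median scaling, and -0.019 without female control 3 and male control 2, a setting chosen after seeing the data. Median scaling also gave Egr1 -0.064 in males, and Dusp1 -0.055, Egr1 -0.019 and Fos -0.004 averaged over the sexes. Array weights gave Egr1 -0.12 in the difference between the sexes and Fosb 0.17 between the sexes in small litters. Without female control 3 and male control 2, Egr1 was -0.023 in females, -0.10 in the difference between the sexes and -0.016 between the sexes in controls, and Fosb was 0.025 in that difference. Without male small litter 2 and 3, also chosen after seeing the data, Fos was -0.54, Egr1 -0.057 and Junb -0.16 in males. Averaged over the sexes Fos was then -0.35, Arc -0.028, Junb -0.17 and Dusp1 -0.065, the difference between the sexes was 0.40 for Fos and 0.32 for Fosb, and between the sexes in small litters Fos was -0.83, Egr1 -0.05 and Junb -0.27. Values that changed sign without 1 array are given as ranges. For the litter effect in females these were Fos -0.48 to 0.060, Egr1 -0.035 to 0.31, Egr4 -0.30 to 0.42, Junb -0.42 to 0.080 and Dusp1 -0.17 to 0.34. For that in males these were Fos -0.026 to 0.80, Egr1 -0.090 to 0.19, Egr3 -0.37 to 0.065 and Dusp1 -0.19 to 0.051. For their average these were Fos -0.087 to 0.33, Egr1 -0.0039 to 0.19, Egr4 -0.35 to 0.0060, Junb -0.014 to 0.25 and Dusp1 -0.12 to 0.14. For their difference these were Fosb -0.62 to 0.26, Egr1 -0.11 to 0.23, Egr3 -1.48 to 0.091 and Dusp1 -0.11 to 0.40. For the sex difference in controls these were Fosb -0.67 to 0.20, Egr1 -0.028 to 0.31 and Egr4 -0.25 to 0.47. For the sex difference in small litters these were Fos -0.31 to 0.52, Fosb -0.27 to 0.20, Egr1 -0.084 to 0.18 and Egr3 -0.41 to 0.036. Arc kept its direction under each of the 25 settings for the litter effect in females (-0.45 to -0.20) and in males (0.29 to 0.64). It also did so under the 24 for their difference (-0.99 to -0.51, limma adjusted p from 0.0715 upward). Some of these settings leave its estimate unchanged, as said above. Over all features, 9 were called between the sexes in controls, against 16 with the authors' values, 17 without background correction, 1 with detection on all 12 arrays, 15 with every probe on its own, 5 with only the 6 arrays compared and 29 with trend and robust. In small litters 330 were called, against 883, 884, 552, 5 and 969 under the same settings other than every probe, and 787 with an offset of 50, 70 with median scaling, 89 without the detection filter and 2601 with array weights. There were 4 without male small litter 2 and 3 and 24 without female control 3 and male control 2. Without 1 array the calls were 0 to 1 for the litter effect in females, 0 to 662 in males, 0 to 1 for their average, 0 to 190 for their difference and 4 to 1650 between the sexes in small litters. Leaving out male small litter 1 gave the counts of 662, 190 and 1650, and leaving out replicate 2 of that group gave 4. Mice with the same replicate number did not deviate together (r = -0.13 to 0.11 over 18 pairs, 1 above 0.1). Mice of unlike number had r = -0.12 to 0.17 over 36 pairs. With 3 arrays per group these values cannot settle whether the numbers pair the mice, and the labels do not say. With the replicate number as a block, 0 members were called, and 10 features were called between the sexes in controls and 113 in small litters. Each number occurs once per group, so this block leaves every estimate and its direction unchanged. Depth is limited by signal over background: the Fosb, Egr3 and Egr4 probes were dim, where the offset compresses differences.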

Other observations

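On female control 2, 12 features exceeded every other array by at least 0.5, and they were named here after their values were seen. Beside Egr3, Ttr, Fosb and Gadd45b, these were Rprml (0.85 above the highest other array), Zbed5 (0.71), Pmepa1 (0.61), Rin1 (0.60), Ubtd1 (0.58), 6330415B21Rik (0.56), Zfp607a (0.51) and 1 feature without a gene name (0.98). Rin1 encodes a Ras effector of forebrain neurons and Pmepa1 an inhibitor of TGF-beta signalling.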
